A study of Mus musculus with 52 samples.

Results

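The mouse mitochondrial genome carries 37 genes, and all of them were taken here by the prefix mt- of their symbols, out of 48526 gene IDs in each of the 3 deposited tables. They are 13 protein-coding genes, 2 ribosomal RNA genes and 22 transfer RNA genes. Reads were present for all 13 protein-coding genes (22505206 reads over all libraries), for both rRNA genes (1447579 reads) and for 21 of the 22 tRNA genes (24475 reads). mt-Tf, the phenylalanine tRNA gene, had 0 reads in all 52 libraries.

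The libraries came from brain tissue of mice labelled miR-146a KO or WT, where KO is a knockout of the microRNA miR-146a. At embryonic day 14 (E14) the tissue was whole cortex, with 5 KO and 4 WT samples. At postnatal day 30 (P30) it was amygdala, frontal cortex and hippocampus, with 4 KO and 4 WT samples each. At postnatal day 60 (P60) the amygdala and the frontal cortex had 4 KO and 3 WT samples each and the hippocampus had 2 KO and 3 WT samples. The groups follow the sample labels; the series' design text has sensory cortex for the frontal cortex and P6 for P60. It also says that the mice of a region and genotype had different mothers. Strain, sex and the way the knockout was made are not stated in the labels. P-values measure the spread between these samples, and samples of different regions may come from the same animals.

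Mitochondria keep a small circular genome whose protein genes all encode subunits of the respiratory chain and of ATP synthase, the machinery that makes most of a neuron's ATP. Both strands are transcribed as long precursors, which are cut at the tRNAs that lie between the other genes. The rRNAs and most of the mRNAs that result receive short poly-A tails. All other subunits, the mitochondrial ribosomal proteins and the enzymes that transcribe and process mitochondrial RNA are encoded in the nucleus. Pieces of the mitochondrial genome have also been copied into nuclear chromosomes during evolution, where they persist as untranslated copies.

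The libraries held 2933026 to 9469214 reads each, and the values below are the authors' normalised counts, which put the libraries of an age on a common depth. A library's share of mitochondrial reads therefore had a Wilson 95% interval at most 0.0653 percentage points wide, and 3 reads corresponded to between 0.317 and 1.02 reads in 1000000; such intervals and floors cover counting error only. The 3 ages stand in separately normalised tables, so values of different ages are set side by side without a test. The summed normalised count of embryonic cortex markers was 2119 to 2767 at E14 and at most 181 afterwards, and that of hippocampus markers was 1942 to 4817 in the hippocampus and at most 1007 in the other postnatal regions. Amygdala markers did not separate every library: their sum was 302 to 680.0 in the P30 amygdala and 222 to 342 in the P30 frontal cortex. At P60 it was 413 to 619 in the amygdala and 116 to 451 in the hippocampus. The P30 hippocampus (at most 241) and the P60 frontal cortex (at most 375) lay below the amygdala of their age. These markers therefore do not check the amygdala label of every library. The hairpin gene of the deleted microRNA gave a single read over all libraries, so it could not check the genotype labels.

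A stretch of the mitochondrial genome has a near-identical copy on chromosome 1, and the genes inside it are described apart from the other members. In GENCODE M21 transcripts (GRCm38), 7 annotated copies at chr1:24611535-24616197 matched 7 members with 99.71 to 100% identity, spanning chrM:6390-11042, or 4653 bases. mt-Co2, mt-Atp6, mt-Co3, mt-Nd3 and mt-Nd4l were matched over nearly their whole length. mt-Co1 was matched over its last 483 of 1545 bases (31.3%) and mt-Nd4 over its first 876 of 1378 bases (63.6%). mt-Atp8 has no annotated copy, but it lies in the gap between mt-Co2 and mt-Atp6, which is 230 bases in the mitochondrial genome and 233 bases between the chromosome 1 copies. The submitters' processing notes name the older build mm9, so these coordinates are those of GRCm38 and not of the authors' alignment.

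The sequences below show how little separates a member from its copy. Capitals mark the differing base. The first bases of mt-Nd3 and of its copy Gm28438 differ by T3C, counted from 1 at the gene's 5′ end with the member's base first:
mt-Nd3: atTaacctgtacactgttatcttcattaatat
Gm28438: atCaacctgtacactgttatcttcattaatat
The stretch of mt-Co1 that starts at position 1063 differs from its copy Gm29216 by A1066T:
mt-Co1: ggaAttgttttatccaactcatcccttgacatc
Gm29216: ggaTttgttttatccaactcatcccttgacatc
The first 60 bases of mt-Co2 are identical in the chromosome 1 copy Gm28661. The chromosome 2 copy Gm13341, which matched mt-Co2 at 95.91%, has 2 differences in the same 60 bases:
mt-Co2: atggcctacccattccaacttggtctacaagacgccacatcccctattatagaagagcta
Gm28661: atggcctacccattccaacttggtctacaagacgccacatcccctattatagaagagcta
Gm13341: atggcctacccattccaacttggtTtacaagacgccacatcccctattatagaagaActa
Within the matched bases of the 7 members, T3C and A1066T are the only 2 substitutions, so a read of 130 bases that covers neither matches member and copy equally well. How the authors' counting treated reads that match more than 1 place is not given in the sources used here.

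The 6 protein genes inside the stretch were close to 0 at E14 and high at P30 and P60. mt-Co2, the second subunit of cytochrome c oxidase, which accepts electrons from cytochrome c, had a normalised count of 8.35 to 10.6 over the 9 E14 libraries, 1344 to 3531 over the 24 P30 libraries and 1516 to 3353 over the 19 P60 libraries. The E14 libraries all lay far below every postnatal library. mt-Atp6, the ATP synthase subunit that forms part of the proton channel, had a mean of 13.5 at E14, 4802 at P30 and 5281 at P60. mt-Co3 had means of 5.54, 2094 and 2422, and mt-Nd4l, a small membrane subunit of complex I, had 6.39, 1022 and 1199. mt-Atp8, a small ATP synthase subunit, had 1.43, 409 and 389. mt-Nd3, another membrane subunit of complex I, had 7.53, 242 and 322. Set side by side, the P30 mean was 32.1 to 378 times the E14 mean for these 6 genes.

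The genes outside the stretch differed far less between ages. mt-Cytb, the only mitochondrially encoded subunit of complex III, had a normalised count of 3807 to 4988 over the E14 libraries, of 6774 to 11165 over the P30 libraries and of 7079 to 10335 over the P60 libraries. mt-Nd5, a proton-pumping subunit of complex I, had means of 4635, 10010.3 and 10370.2. The 7 genes wholly outside (mt-Nd1, mt-Nd2, mt-Nd5, mt-Nd6, mt-Cytb, mt-Rnr1 and mt-Rnr2) had P30 means 1.71 to 2.44 times their E14 means. Of the partly covered genes, mt-Co1, the catalytic subunit of cytochrome c oxidase, had means of 7157, 16709.5 and 16783, a P30 to E14 ratio of 2.34 that lies within the range of the outside genes. mt-Nd4 had means of 2332, 10475 and 10979, a ratio of 4.49, between the outside and the inside genes. Between P30 and P60 all 15 genes had means within a ratio of 0.95 to 1.33.

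**Figure D1:**
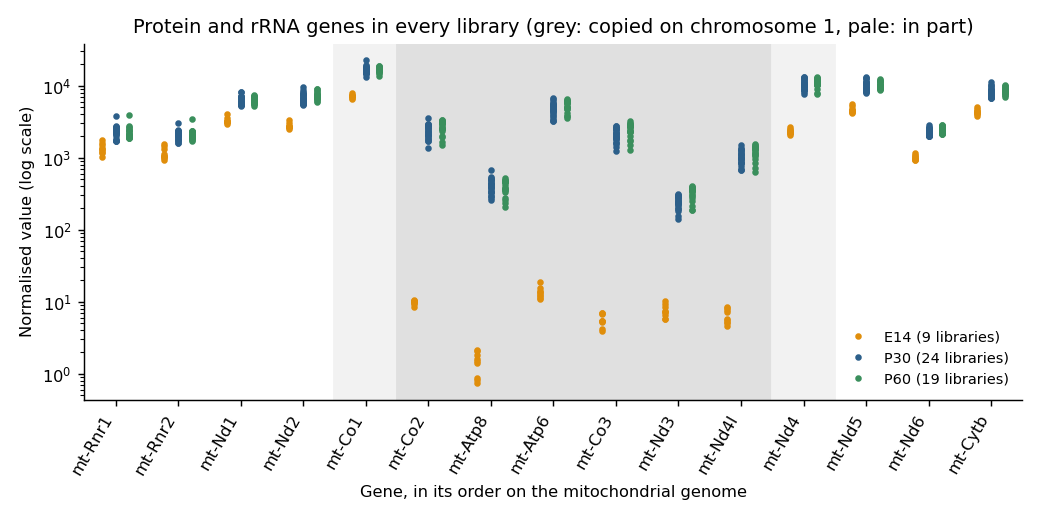
Normalised count (log axis) of each of the 15 protein-coding and rRNA genes in every library, by age, with genes in the order of the mitochondrial genome. The 6 genes inside the stretch copied on chromosome 1 sit at or below 18.6 at E14 and between 140.0 and 6800.1 at P30, while the genes outside it stay within the same order of magnitude.

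The same contrast can be read within each library. Per 100 reads in the 7 outside genes, the 6 inside genes had 0.22 to 0.26 reads in the E14 libraries, 17.7 to 37.7 in the P30 libraries and 17.6 to 37.8 in the P60 libraries. Together, the 7 chromosome 1 copies had 105 to 128 reads per 100 reads of the 6 inside genes at E14. The reads per library were 395 to 524 against 349 to 498. The 7 copies include those of mt-Co1 and mt-Nd4, which are not among the 6 inside genes, so this ratio does not set member against copy. Member against copy, the E14 means were 9.84 and 5.51 for mt-Co2, 13.5 and 15.9 for mt-Atp6 and 5.54 and 4.25 for mt-Co3. They were 7.53 and 1.32 for mt-Nd3 and 6.39 and 2.43 for mt-Nd4l. In 41 of the 43 postnatal libraries the ratio over all 7 copies was 0.676 to 1.54 reads per 100. The other 2 libraries stood apart: WT amygdala replicate 1 at P30 had 6.79 and WT frontal cortex replicate 1 at P30 had 4.99. The copies' own values differed less between ages than those of the inside genes: Gm28661, the copy of mt-Co2, had 5.51 at E14, 17.3 at P30 and 11.9 at P60. Whether the low E14 values arose from the counting of reads shared with the copies was not tested, since the aligned reads were not used here, and a difference in processing between the tables cannot be told apart from age.

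**Figure D2:**
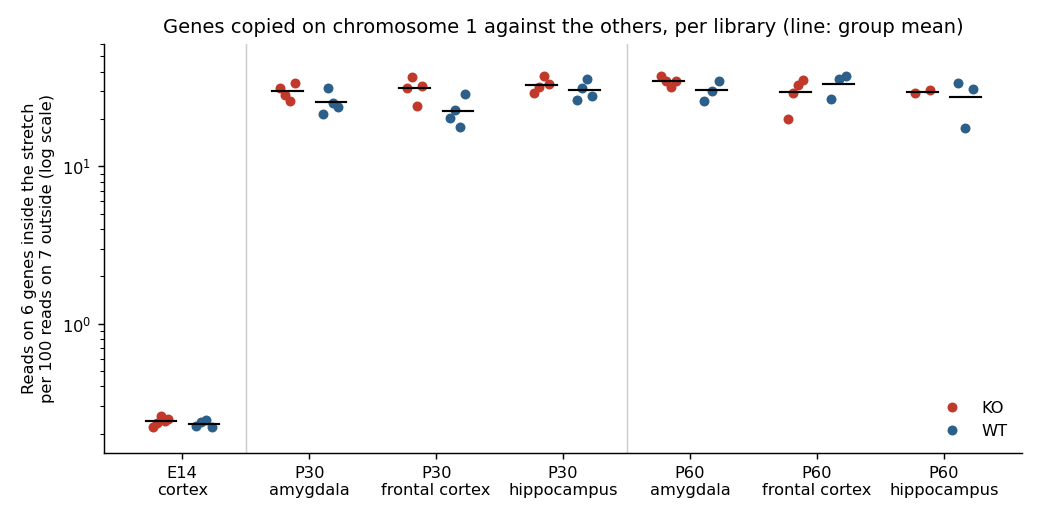
Reads in the 6 inside genes per 100 reads in the 7 outside genes (log axis) for each of the 52 libraries, by group. The 9 E14 libraries lie between 0.22 and 0.26 and all postnatal libraries lie between 17.6 and 37.8.

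Within groups the inside genes also varied more between replicates. The median coefficient of variation over genes and groups was 18.1% inside against 8.58% outside at E14, 19.1% against 9.19% at P30 and 23.5% against 9.52% at P60. Levels that involve the stretch, sums over all members included, are therefore given separately from those outside it below.

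Per kilobase of gene, mt-Co1 was the highest member at every age. At P30 its mean normalised count per kilobase was 10815, followed by mt-Nd4 (7601), mt-Cytb (7206), mt-Atp6 (7052), mt-Nd1 (6563) and mt-Nd2 (6555). mt-Nd4, mt-Cytb and mt-Atp6 lay closer to each other than the spread between the libraries of any of them, and so did mt-Nd1 and mt-Nd2. mt-Nd5 (5488), mt-Nd6 (4390.0), mt-Nd4l (3439), mt-Co2 (3405) and mt-Co3 (2672) came next. The 12S rRNA gene mt-Rnr1 (2432), mt-Atp8 (2006), the 16S rRNA gene mt-Rnr2 (1320) and mt-Nd3 (696) were lowest. The rRNA levels belong to a poly-A selected library and do not measure total rRNA. At P60 the order differed only in neighbours: mt-Atp6 (7755) stood above mt-Cytb (7454), and mt-Nd2 (7063) above mt-Nd1 (6627). At E14 the order began with mt-Co1 (4633), mt-Cytb (3808) and mt-Nd1 (3462), mt-Rnr1 was eighth at 1421, and all 6 inside genes lay between 7.03 and 21.7.

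Summed over the 37 genes, mitochondrial reads made up 2.82% ± 0.160 (SD, n = 9) of a library at E14, 7.61% ± 0.918 (n = 24) at P30 and 7.95% ± 0.726 (n = 19) at P60. Over the 7 outside genes alone the shares were 1.86%, 3.80% and 3.95%. Of the mitochondrial reads, the rRNA genes supplied 8.95% (E14), 5.83% (P30) and 5.58% (P60), and the tRNA genes 0.149%, 0.108% and 0.0835%.

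By genotype, the share of all mitochondrial reads differed most in the P30 amygdala. The KO libraries there had 7.22%, 6.34%, 6.15% and 7.84% and the WT libraries 7.81%, 8.48%, 9.37% and 8.23%, so that 1 KO library overlapped the lowest WT library. At E14 the KO libraries had 2.99%, 2.80%, 3.12%, 2.85% and 2.82% and the WT libraries 2.73%, 2.76%, 2.56% and 2.73%, with every KO library above every WT library. In the P30 frontal cortex the KO libraries lay at 6.37 to 7.23% and the WT libraries at 6.73 to 8.15%. The hippocampus groups overlapped at P30, with 7.94% ± 0.837 in KO and 8.19% ± 1.00 in WT (SD, n = 4 each). At P60 the means were 8.45% in KO and 7.50% in WT amygdala, 7.79% and 7.74% in frontal cortex, and 7.68% and 8.35% in hippocampus, and the libraries of KO and WT overlapped in each region. The P30 amygdala order was clearer outside the stretch: these genes made up 3.12 to 3.72% in KO and 4.14 to 4.71% in WT libraries, and in the P30 frontal cortex 3.22 to 3.32% in KO and 3.55 to 4.47% in WT libraries, with no overlap in either region. At E14 the outside share went the other way without overlap, with 1.859 to 2.13% in KO and 1.675 to 1.812% in WT libraries. KO and WT libraries overlapped for this share in the P30 hippocampus and in each P60 region.

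**Figure D3:**
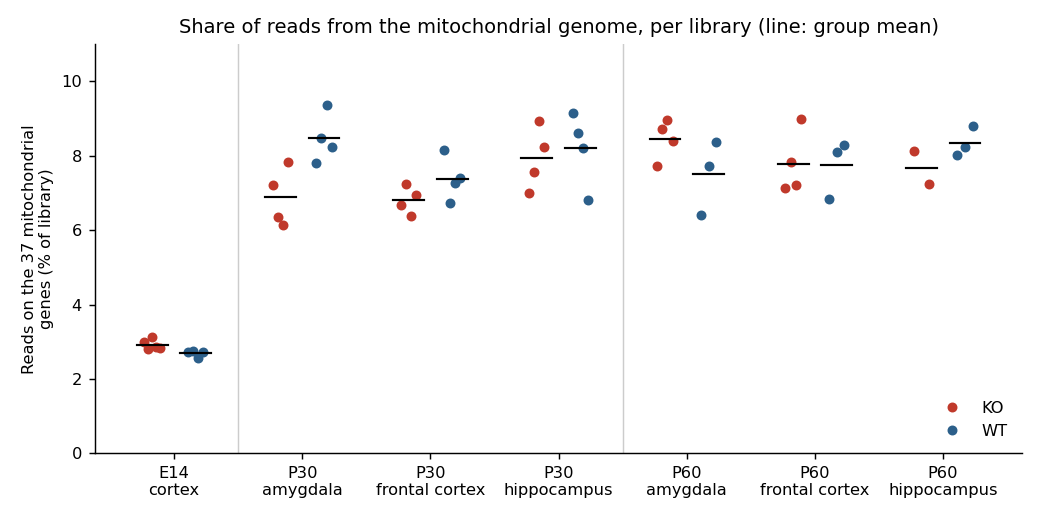
Percent of each library's reads in genes of the mitochondrial genome, one point per library, by age, region and genotype, with the group mean. E14 libraries lie between 2.56 and 3.12%, postnatal libraries between 6.15 and 9.37%, and KO and WT libraries overlap in every postnatal region.

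No mitochondrial gene passed the test between KO and WT in any of the 7 age and region settings. The test was limma with a mean-variance trend on log2(value + 1), fitted across all genes of a table with Benjamini-Hochberg adjustment over all of them and a threshold of 0.05. Of all genes tested, it called 0.049% at E14, 0.0263% in the P30 amygdala, 0.0158% in the P30 frontal cortex, 0.0316% in the P30 hippocampus, and 0.0208%, 0.0312% and 0.0208% in the P60 amygdala, frontal cortex and hippocampus. At this rate of calls, 0 of 15 protein-coding and rRNA genes lies near the background. The limma interaction contrasts, which ask whether KO minus WT differs between regions, also called 0 members and 0.0% of all genes. At an unadjusted p under 0.05, limma's trend gave 2 of the 15 genes for amygdala against hippocampus at P30, 2, 1 and 2 for the P60 contrasts (hippocampus and amygdala against frontal cortex, amygdala against hippocampus) and 0 for the other P30 contrasts, and voom, another limma method run on the recovered reads, gave 3, 2, 1, 2 and 0. Over all genes, limma's trend gave 1165 of 18976 for amygdala against hippocampus at P30. For the P60 contrasts in the order above it gave 376, 605 and 472 of 19239. No count over all genes is given for voom, here or below, so its counts of members stand without a background.

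In the P30 amygdala the genes outside the stretch were all lower in KO without passing the adjusted threshold. mt-Rnr1 had normalised counts of 1732, 1830.01, 1718 and 1748 in KO and 2143, 2517, 2601 and 2718 in WT. All 4 KO libraries lay below all 4 WT libraries, with a log2 difference of -0.50 (SE 0.144) and a limma adjusted p of 0.280 (0.0020 before adjustment). mt-Rnr2 had 1746, 1751, 1712 and 1602 in KO and 1976, 2329, 2374 and 2464 in WT, a log2 difference of -0.42 (limma adjusted p = 0.280). Among the complex I genes, mt-Nd5 had 9446, 8478, 8527 and 10440.4 in KO and 11429, 11411, 12759.8 and 11831 in WT, a log2 difference of -0.37. mt-Nd1, mt-Nd2 and mt-Nd6, the gene for a complex I subunit that is encoded on the opposite strand from all other protein genes, and mt-Cytb differed by -0.33, -0.38, -0.28 and -0.34. These 7 genes did not overlap between the groups; of all genes tested 2.52% did not overlap and were lower in KO.

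Inside the stretch the P30 amygdala groups overlapped for all 6 genes. mt-Co2 had 2354, 2011, 1803 and 2720 in KO and 1844, 2850, 2537 and 2101 in WT, a log2 difference of -0.07 (SE 0.174). The median difference was -0.08 over the 6 inside genes, -0.37 over the 7 outside genes and 0.00 over all genes tested. Leaving out either KO replicate 3 or WT replicate 2 turned the inside median to 0.02, while the outside genes stayed below 0 without any 1 library. At an unadjusted limma p under 0.05 there were 6 of the 13 protein genes and both rRNA genes, and 1864 of all 18976 genes tested. With voom there were 8 of the 15. The lowest adjusted p over 17 settings of the analysis was 0.126. In this comparison all 8 astrocyte, 8 microglia, 7 oligodendrocyte and 6 endothelial marker genes were also below 0, with medians of -0.24, -0.32, -0.58 and -0.35, and none passed the test. Their summed normalised counts were 5917 to 6559.9 in KO and 6631 to 9681 in WT for astrocytes, 172 to 221 and 222 to 300 for microglia, 227 to 265 and 259.5 to 438 for endothelial cells, and 1377 to 2222 and 1730 to 6662 for oligodendrocytes. The 6 choroid plexus genes had a median of -0.84, with sums of 13.5 to 20.4 in KO and up to 1232 in WT. Other lists had higher median sums in KO: 6939 in KO and 6496 in WT for neuron, 209 and 135 for meninges, 620.1 and 557.9 for amygdala and 480 and 467 for cortex markers. Lower in KO were those of hippocampus (737 and 844), embryonic cortex (134 and 155) and red blood cell markers (16.5 and 21.1). The part of all these markers in the lower mitochondrial values was not tested. In bulk tissue fewer cells of a type and less RNA per cell cannot be told apart. The 74 measured nuclear genes of the respiratory complexes had a median of 0.07, with 56 above 0 and none called.

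In the P30 frontal cortex the stretch again divided the members. All 7 outside genes were below 0 (median -0.23) and all 6 inside genes were above 0 (median 0.24), against a median of 0.01 over all genes. mt-Nd5 had 7867, 8439, 8081 and 8416 in KO and 12931, 9075, 9859 and 9273 in WT, a log2 difference of -0.31 (SE 0.113) that was -0.20 without WT replicate 1. mt-Nd3 had 233, 297, 193 and 236 in KO and 157, 180, 140 and 233 in WT, a log2 difference of 0.44 (SE 0.158). mt-Nd5 did not overlap between the groups and mt-Nd3 did. The 6 members that lay lower without overlap were mt-Nd1, mt-Nd2, mt-Nd5, mt-Nd6, mt-Cytb and mt-Rnr1, where 0.985% of all genes did so. The limma adjusted p-values were 1.0 for all 15 genes; 7 protein genes had an unadjusted p under 0.05, and with voom 6 of the 15 did. Of all genes tested, limma gave an unadjusted p under 0.05 to 371 of 18976. Without WT replicate 1 the outside median was -0.17, with all 7 still below 0, and 1 gene had an unadjusted p under 0.05. Leaving out either KO replicate 2 or WT replicate 3 brought the inside median to 0.14. Among tRNA genes mt-Tw, for tryptophan, lay higher without overlap (3.30, 3.10, 2.44 and 2.66 in KO and 2.01, 1.63, 2.25 and 2.09 in WT), where 1.37% of all genes did. The WT replicate 1 library, highest for mt-Nd5, is also 1 of the libraries with more reads on the chromosome 1 copies. No marker gene was called here. The medians were 0.23 for amygdala, 0.18 for choroid plexus, 0.14 for meninges, 0.12 for oligodendrocyte (7 of 7 above 0), -0.13 for endothelial, -0.06 for microglia, -0.05 for cortex and -0.03 for astrocyte markers, and between -0.01 and 0.05 for the other lists. The summed normalised counts of endothelial markers were 281 to 293 in KO and 294 to 348 in WT, and those of oligodendrocyte markers 5774 to 7378 and 4589 to 7312. Their part in the mitochondrial values was not tested.

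At E14 both rRNA genes were higher in KO at an unadjusted p. mt-Rnr1 had 1303, 1495, 1376, 1605 and 1765 in KO and 1217, 1034, 1148 and 1273 in WT, with every KO library above every WT library, a log2 difference of 0.37 (SE 0.0935) and a limma adjusted p of 0.9998. mt-Rnr2 had 1041, 1312, 1011, 1447 and 1538 in KO and 1005, 920, 1066 and 1119.96 in WT, a log2 difference of 0.29 with overlap. All 13 protein genes were above 0, from 0.05 to 0.36 with a median of 0.13, against 0.01 over all genes. None of them had an unadjusted p under 0.05, and with voom 1 of the 15 genes did. Of all genes tested, limma gave such a p to 531 of 18350. mt-Co2 also did not overlap (10.1 to 10.6 in KO and 8.35 to 10.02 in WT), at low normalised counts; of all genes 0.643% lay higher in KO without overlap. Region markers differed beside these genes: the 6 cortex markers were all above 0 (median 0.30), and the 6 amygdala markers had a median of -0.37, with 3 at an unadjusted p under 0.05. The 5 meninges markers tested had a median of -0.35 and the 6 microglia markers one of 0.21, and no marker was called. The summed normalised counts were 1224 to 2022 in KO and 1071 to 1382 in WT for cortex markers, 950.0 to 1106 and 914 to 1067 for amygdala markers, and 8.71 to 101.5 and 9.23 to 118 for meninges markers. Their part in the rRNA values was not tested.

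The other settings held smaller or more scattered differences. In the P30 hippocampus the protein genes had a median of 0.00 and no member had an unadjusted p under 0.05, with limma's trend or with voom. In the P60 amygdala all 13 protein genes were above 0, with medians of 0.34 inside and 0.12 outside the stretch, and again none had an unadjusted p under 0.05 by either method. Without WT replicate 1 these medians were 0.14 and 0.02, and without WT replicate 3 they were 0.58 and 0.21. Same-numbered KO and WT libraries deviated together in this region, and in the 3 pairs KO was higher every time for 10 of the 13 protein genes; the exceptions were mt-Atp6, mt-Co3 and mt-Nd3, with 2 pairs each. With the replicate number as a block, 4 of the 15 genes had an unadjusted p under 0.05 (mt-Co2, mt-Atp8, mt-Nd4 and mt-Nd4l) and the lowest limma adjusted p was 0.403. The pairing was read from these same data, and no count over all genes is given for the pairs or the block. With the same block 5 of the 15 genes had such a p in the P60 frontal cortex (lowest limma adjusted p 0.181). There 0 of the 13 protein genes were above 0, the opposite direction. In the P60 frontal cortex the rRNA genes were higher in KO: mt-Rnr1 had 2241, 3974, 2705 and 2616 in KO and 1869.6, 2433 and 2059.8 in WT, a log2 difference of 0.42. The KO replicate 2 library was the highest of all 52 for both rRNA genes, and without it the difference was 0.25 for mt-Rnr1 and fell from 0.36 to 0.20 for mt-Rnr2, neither at an unadjusted p under 0.05. Both rRNA genes had an unadjusted p under 0.05 there, and with voom 2 of the 15 genes did. Of all genes tested in this region, limma gave such a p to 431 of 19239. In the P60 hippocampus, with 2 KO libraries, the median was -0.09 for protein genes (-0.17 to 0.03 with 1 library left out). mt-Rnr2 and, among tRNA genes, mt-Te, for glutamate (9.94 and 8.93 in KO and 9.98, 11.7 and 13.3 in WT), lay lower without overlap, where 5.56% of all genes did.

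**Figure D4:**
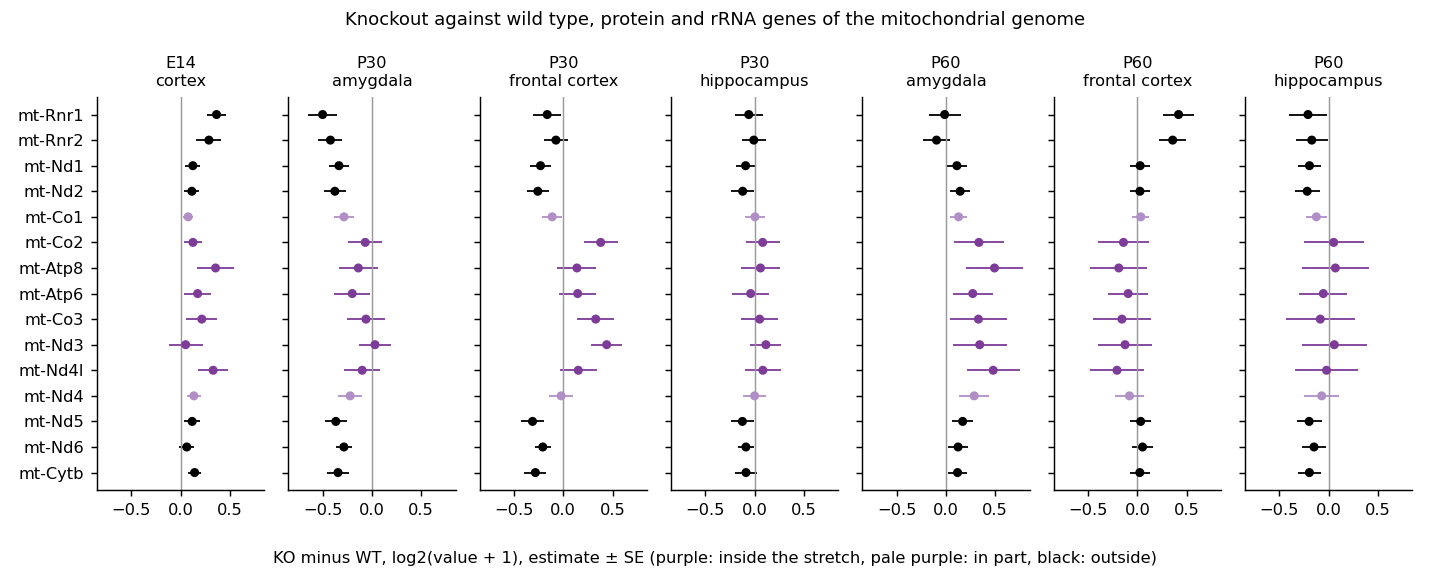
Log2 difference KO minus WT on the log2(value + 1) scale, with its standard error, for the 15 protein-coding and rRNA genes in the 7 settings, in genome order. In the P30 amygdala and frontal cortex the genes outside the stretch lie below 0, while those inside it lie between -0.20 and 0.03 in the amygdala and between 0.14 and 0.44 in the frontal cortex.

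Between regions, protein-coding members were called at P30 and none at P60. Between the hippocampus and the frontal cortex at P30, 8 of the 13 protein genes were higher in the hippocampus and none was lower (limma, adjusted p under 0.05), where 43.3% of all genes were called, 19.6% as higher. All 6 inside genes were among them, together with mt-Nd4 and mt-Nd2. mt-Nd4, a proton-pumping subunit of complex I, had a lowest, median and highest normalised count of 9097, 12021 and 13381 in the hippocampus and 7708, 9180.1 and 10302 in the frontal cortex. The ranges overlapped, and the log2 difference was 0.35 (SE 0.0847, limma adjusted p = 0.00166). mt-Nd4l had 857, 1235 and 1504 against 669, 843 and 1104, a log2 difference of 0.49 (SE 0.131, limma adjusted p = 0.00413).

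The subunits of complexes IV and V inside the stretch differed by similar amounts. mt-Co2 had 2089, 2713 and 3531 in the hippocampus and 1344, 2015 and 2678 in the frontal cortex, a log2 difference of 0.44 (SE 0.123, limma adjusted p = 0.00573). mt-Co3 differed by 0.37 (limma adjusted p = 0.0284), mt-Atp6 by 0.41, mt-Atp8 by 0.47 and mt-Nd3 by 0.40. The median was 0.42 inside the stretch, 0.14 outside it and -0.01 over all genes tested. Outside the stretch mt-Nd2 was called at 0.20 with a limma adjusted p of 0.0458, and it lost its call in 11 of the 16 fits that left out 1 library. mt-Co3 lost its call in 7 of those 16 fits, and mt-Co3, mt-Atp6 and mt-Atp8 lost it when the WT replicate 3 libraries of all 3 regions were left out together. Neither rRNA gene was called, with differences of 0.03 and 0.08.

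In the other P30 contrasts only mt-Nd4 was called, higher in the amygdala than in the frontal cortex by 0.22 (limma adjusted p = 0.0475, with 23.4% of all genes called higher), and it lost this call in 10 of the 16 fits that left out 1 library. No protein-coding or rRNA gene was called between the amygdala and the hippocampus at P30, where 44.1% of all genes were. There 1 rRNA gene had an unadjusted limma p under 0.05, as did 9560 of all 18976 genes. With voom 7 of the 15 genes had one, a count given without the voom count over all genes. At P60 no protein-coding or rRNA gene was called between any regions, where limma called 32.8% of all genes between hippocampus and frontal cortex, 31.4% between amygdala and frontal cortex and 29.0% between amygdala and hippocampus. At an unadjusted p under 0.05 there were 1, 0 and 0 of these 15 genes with limma's trend and 1 in each with voom. Over all 19239 genes, limma's trend gave such a p to 8055, 7932 and 7487. The inside genes, all higher in the hippocampus than in the frontal cortex at P30, had a P60 median of -0.05 in that contrast. Of them 2 were above 0 and 4 below. The median outside the stretch was 0.08. In 1 alternative a new scaling of the recovered reads (trimmed mean of M-values, without the mitochondrial genes) replaced the authors' scaling. With it the share of called genes that were higher in the amygdala moved from 62.8 to 49.7% against the frontal cortex at P30. Against the hippocampus at P30 it moved from 65.4 to 51.3%. At P60 these shares moved from 64.8 to 49.6% and from 67.6 to 53.1%. No such share was computed with the mitochondrial genes kept in the new scaling, so their part in the shift was not tested.

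Of the 74 nuclear genes of the respiratory complexes that were tested, 29 (39.2%) were higher and 3 (4.05%) lower in the hippocampus than in the frontal cortex at P30, where 19.6% of all genes were higher and 23.7% lower. At P60 38 (51.4%) were higher and none lower, where 15.8% of all genes were higher and 17.0% lower. The median log2 difference was 0.09 and 0.24. By the rule for naming nuclear genes, which takes the largest called difference of each list in each direction, the genes were Ndufv3 in complex I (0.35), Sdhc in complex II (0.31), Uqcrb in complex III (0.39), Ndufa4 in complex IV (0.20) and Atp5h in ATP synthase (0.41) at P30. Those lower were Ndufb6 (-0.37), Uqcrc1 (-0.26) and Atp5d (-0.20). At P60 the leading genes were Ndufs4 (0.47), Sdhc (0.36), Uqcrb (0.54), Cox5b (0.36) and Atp5h (0.47).

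In the amygdala 13 of the 74 (17.6%) were higher and 2 (2.70%) lower than in the frontal cortex at P30, where 23.4% of all genes were higher and 13.9% lower. At P60 17 (23.0%) were higher and none lower, where 20.3% of all genes were higher and 11.0% lower. Against the hippocampus 2 (2.70%) were higher and 13 (17.6%) lower in the amygdala at P30, where 28.8% of all genes were higher and 15.3% lower. At P60 1 (1.35%) was higher and 6 (8.11%) lower, where 19.6% of all genes were higher and 9.39% lower.

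Of 29 tested genes for mitochondrial transcription and RNA processing, 4 (13.8%) were higher and 5 (17.2%) lower in the hippocampus than in the frontal cortex at P30, both shares below those of all genes (19.6% and 23.7%). They were led by Polg2, the accessory subunit of the mitochondrial DNA polymerase (0.42), and Fastk (-0.36). At P60 4 (13.8%) were higher and none lower, against 15.8% and 17.0% of all genes, led by Hsd17b10, a subunit of the mitochondrial RNase P, which cuts the 5′ ends of the tRNAs (0.48). Of 30 mitochondrial ribosomal protein genes, 9 (30%) were higher and 4 (13.3%) lower at P30, and 7 (23.3%) were higher and none lower at P60.

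Cell type markers differed beside these contrasts. In the hippocampus against the frontal cortex at P30, 5 of 8 microglia markers (median -0.23), 4 of 6 endothelial markers (median -0.32) and 3 of 6 neuron markers (median -0.22) were lower, and none of these was higher. Of all genes, 23.7% were called lower and 19.6% higher in this contrast. The oligodendrocyte markers (median 0.51, 7 of 7 above 0) were not called, and of the choroid plexus markers (median 1.02, 6 of 6 above 0) 1 was called higher. Their summed normalised counts were 172 to 224 in the hippocampus and 214 to 243 in the frontal cortex for microglia, 220 to 272 and 281 to 348 for endothelial cells, 5004 to 8188 and 7047 to 7794 for neurons, 4804 to 18313 and 4589 to 7378 for oligodendrocytes, and 41.7 to 5461 and 16.1 to 704 for choroid plexus. At P60 4 of 6 endothelial (median -0.41), 4 of 6 meninges (median -0.74) and 3 of 6 neuron markers (median -0.17) were lower in the hippocampus. Of all genes, 17.0% were called lower there. All 7 oligodendrocyte markers were lower in the amygdala than in the frontal cortex (median -1.41 at P30 and -0.95 at P60) and than in the hippocampus (median -1.93 and -1.04), all called. Of all genes, 13.9% at P30 and 11.0% at P60 were called lower in the amygdala than in the frontal cortex. Against the hippocampus 15.3% and 9.39% were called lower. The part of these markers in the mitochondrial values was not tested.

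The tRNA genes gave few reads. They are 59 to 75 bases long, shorter than a read of 130 bases, and mature tRNAs carry no poly-A tail; the part of either in the low counts was not tested. A read of full length that covers such a gene reaches into its neighbours, and some genes overlap: mt-Ti overlaps mt-Nd1 and mt-Tq, and mt-Tw overlaps mt-Nd2. Whether the counting used strand is not given in the sources used here. Of the 22 genes, 18 had reads at E14 and 21 at P30 and at P60, and 7, 12 and 11 passed the filter on low values. Inside the copied stretch, mt-Ts1, mt-Td and mt-Tk had 0 reads in all E14 libraries, where 3 reads correspond to 0.317 to 0.371 reads in 1000000, and 42, 26 and 64 reads over the P30 libraries. The other two tRNA genes inside it had reads in all 9 E14 libraries. mt-Tg, for glycine, had a normalised count of 0.32 to 1.04 at E14 (51 reads in all) and of 0 to 1.5 at P30 (127 reads), so that its ranges overlapped between the ages. mt-Tr, for arginine, had 0.11 to 0.56 at E14 (28 reads) and 0.13 to 2.14 at P30 (152 reads), which overlapped too.

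The following tRNA genes carried the differences between regions. Each is printed 5′ to 3′ in its own sense with the anticodon in capitals, from GENCODE M21 (GRCm38). mt-Tp and mt-Tc are the proline and cysteine tRNAs on the minus strand at chrM:15356-15422 and chrM:5192-5257, and mt-Te is the glutamate tRNA on the minus strand at chrM:14071-14139:
mt-Tp: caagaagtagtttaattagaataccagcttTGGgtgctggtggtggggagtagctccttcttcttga
mt-Tc: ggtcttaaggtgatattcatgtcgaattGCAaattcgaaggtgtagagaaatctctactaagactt
mt-Te: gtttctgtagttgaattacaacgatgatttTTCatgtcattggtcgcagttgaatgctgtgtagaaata
mt-Tw and mt-Th are the tryptophan and histidine tRNAs on the plus strand at chrM:4950-5016 and chrM:11546-11612, and mt-Tn is the asparagine tRNA on the minus strand at chrM:5089-5159:
mt-Tw: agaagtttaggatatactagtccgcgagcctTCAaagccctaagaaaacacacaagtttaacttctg
mt-Th: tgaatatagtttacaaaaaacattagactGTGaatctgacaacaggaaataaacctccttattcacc
mt-Tn: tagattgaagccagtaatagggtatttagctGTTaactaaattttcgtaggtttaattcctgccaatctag

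mt-Tp showed the largest difference between regions of any mitochondrial gene tested. At P30 its lowest, median and highest normalised counts were 3.46, 6.29 and 14.5 for the frontal cortex, 29.1, 35.0 and 62.7 in the hippocampus and 20.2, 35.0 and 66.6 in the amygdala, over 8 libraries each. All frontal cortex libraries lay below all libraries of the other regions, on 27 to 94 reads per library in the frontal cortex and 95 to 387 elsewhere. Of all 18976 genes tested, 1243 lay higher without overlap in the hippocampus than in the frontal cortex, and 1105 in the amygdala. The log2 difference was 2.31 (SE 0.198, limma adjusted p = 4.69e-09) for the hippocampus and 2.19 (SE 0.198, limma adjusted p = 3.72e-08) for the amygdala. At P60 the frontal cortex was again lowest, with 8.98, 11.4 and 23.7 against 23.2, 26.8 and 39.2 in the hippocampus and 17.7, 23.8 and 36.7 in the amygdala. The ranges overlapped at P60, and the log2 differences were 1.09 and 0.90 (limma adjusted p = 0.00309 and 0.00613). The neighbouring mRNA mt-Cytb lies on the other strand, and it was not called in any of these 4 contrasts. Whether reads that reach into neighbouring sequence had a part in the mt-Tp differences was not tested.

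Other tRNA genes moved the opposite way at P30. mt-Tw had 1.63, 2.35 and 3.30 for the frontal cortex, 0.27, 0.80 and 1.43 in the hippocampus and 0.52, 0.94 and 1.66 in the amygdala. The frontal cortex libraries held 11 to 27 reads and the others 2 to 12, with no overlap against the hippocampus. Of all 18976 genes tested, 1821 lay lower without overlap in the hippocampus. mt-Tw, mt-Th, mt-Tn and the alanine tRNA mt-Ta were lower than in the frontal cortex, with log2 differences of -0.87, -0.79, -0.79 and -0.52 in the hippocampus and -0.77, -0.99, -0.60 and -0.59 in the amygdala, all called by limma (23.7% and 13.9% of all genes were called lower). mt-Tw, mt-Ta and mt-Tn are neighbours between mt-Nd2 and mt-Co1, while mt-Th follows mt-Nd4. mt-Tc and mt-Ty, which also lie between mt-Nd2 and mt-Co1, were not called against the frontal cortex at P30. The mt-Tc means were 8.01 in the frontal cortex, 9.86 in the hippocampus and 9.35 in the amygdala. Those of mt-Ty, in the same order, were 4.04, 3.33 and 4.80. The isoleucine tRNA mt-Ti was higher in the hippocampus by 0.41 and lost that call in 4 of 16 fits that left out 1 library. In all, 6 of 12 tRNA genes were called between hippocampus and frontal cortex and 5 of 12 between amygdala and frontal cortex, where 37.3% of all genes were called. Between amygdala and hippocampus only the tyrosine tRNA mt-Ty was called (0.44, limma adjusted p = 0.0330, with 28.8% of all genes called higher), and it lost the call in 7 of 16 such fits.

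At P60 the called tRNA genes were all lower in the frontal cortex, where 15.8% of all genes were called higher in the hippocampus and 20.3% higher in the amygdala. mt-Tc had 5.22, 7.30 and 8.34 there, 10.3, 14.1 and 18.8 in the hippocampus and 8.95, 12.9 and 18.3 in the amygdala. Its frontal cortex libraries lay below all others, with log2 differences of 1.00 (SE 0.164, limma adjusted p = 0.000103) and 0.79 (SE 0.149, limma adjusted p = 0.000456). Of all 19239 genes tested, 1685 lay higher without overlap in the hippocampus than in the frontal cortex, and 1503 in the amygdala. At P30 the same gene had medians of 7.98, 9.52 and 9.26 and was not called. mt-Te had 3.05, 4.98 and 8.93 in the frontal cortex against 8.93, 9.98 and 13.3 for the hippocampus, a log2 difference of 0.90. mt-Tq, for glutamine, and mt-Ti were also called between hippocampus and frontal cortex, at 0.76 and 0.73, which made 5 of 11 tRNA genes there, 3 of 11 between amygdala and frontal cortex and 0 of 11 between amygdala and hippocampus, where 1 had an unadjusted p under 0.05 and the lowest adjusted p was 0.0584. Between KO and WT limma called no tRNA gene at any age; 1 had an unadjusted p under 0.05 at E14 and in each of the P30 amygdala, P30 frontal cortex and P60 amygdala.

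**Figure D5:**
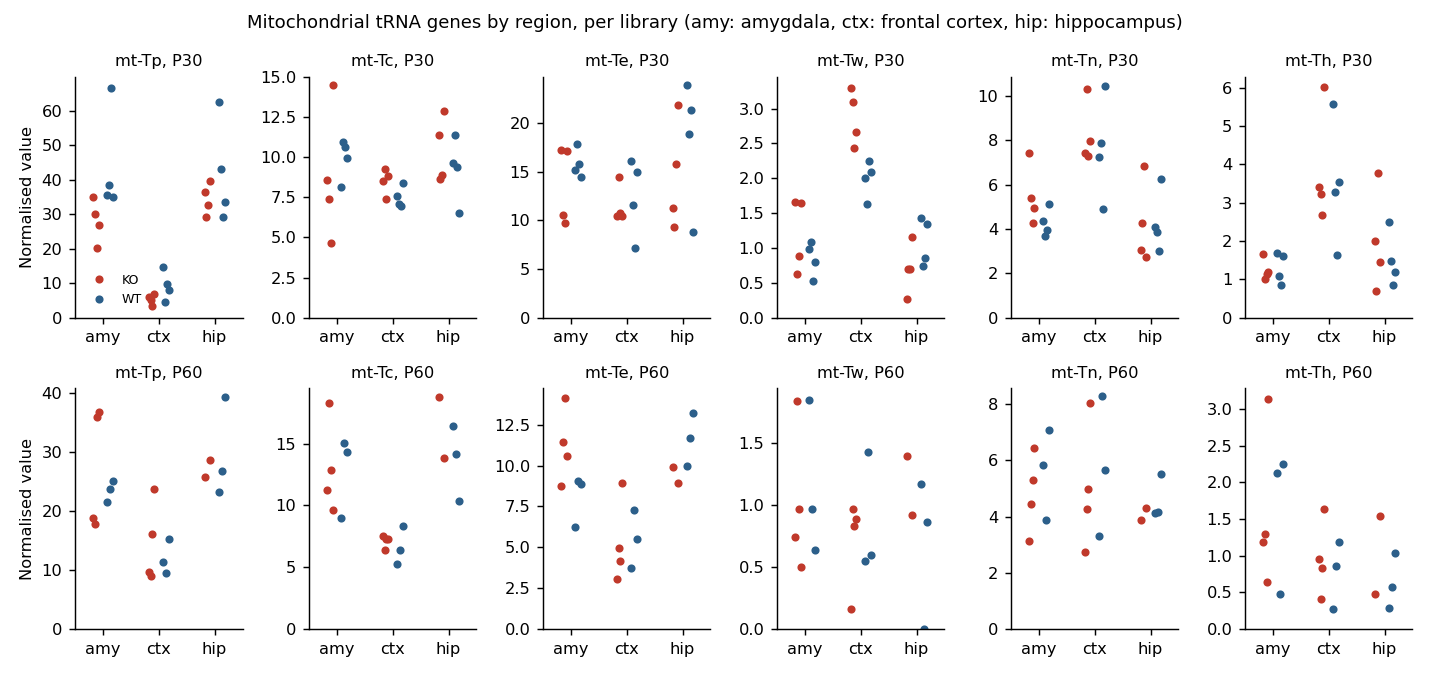
Normalised count of tRNA genes in every postnatal library, by region and age, one point per library. mt-Tp lies between 3.46 and 14.5 in the P30 frontal cortex and between 20.2 and 66.6 in the other P30 regions.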

How the data were processed

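RNA was sequenced from the poly-A+ fraction with a stranded kit and paired reads of 130 bases, per the labels' protocols. The authors deposited 3 tables, 1 per age, of normalised counts on an adjusted library size. The submitters' processing notes name limma, edgeR, DESeq and mm9 without roles; the sources used here do not state the aligner, the counter or the treatment of reads with several matches. Column totals ran from 945861 to 1039135. At least 99.943% of the values of a library came out as whole reads (within 0.1 read), which gave depths and shares.

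Values were tested as log2(value + 1) with limma 3.58.1 (R 4.3.3, trend and robust variance), 1 fit per age over all genes with a value worth 10 reads at the median depth in at least as many libraries as the smallest group holds and 15 reads in all (18350, 18976 and 19239 genes), checked on simulated data. Benjamini-Hochberg adjustment covered all genes tested. Copies were found with blastn 2.17.0 against GENCODE M21 transcripts. Alternatives were pseudocount 0.1, no filter, scaling without mitochondrial genes, the compared groups alone, WT alone, a replicate block, sex read from Xist, libraries left out, and, added after seeing the data, voom and the chromosome 1 copies' values added to the members. The scaling without mitochondrial genes was a trimmed mean of M-values on the recovered reads, in place of the authors' scaling.

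All protein-coding and rRNA genes were named, tRNA genes with at least 10 reads could be named, and of each nuclear list the called gene with the largest change in each direction. The members and lists were chosen with earlier results of these data known. Same-numbered KO and WT libraries deviated together, with every correlation over 0.1, in the P60 amygdala (0.21 to 0.32). So did same-numbered amygdala and frontal cortex libraries at P60 (0.11 to 0.21 in KO and 0.15 to 0.18 in WT). These were taken as paired by the data. The main fits had no pairing term, and only the replicate block among the alternatives used it. The P60 amygdala and hippocampus libraries were not taken as paired, since only the WT pairs passed 0.1 (0.10 to 0.16, against 0.015 to 0.090 in KO). Nor were KO and WT of the P60 hippocampus (0.50 to 0.62), with 2 pairs.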

Additional observations from a re-analysis of the deposited data

Results flagged for a closer look

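In 13 of the 270 gene-by-group sets of values looked at, 1 library lay far from the others of its group; chance alone gives about 1 in 20 such sets. All values are normalised counts unless a percent is given, and no cause was tested.

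At E14, mt-Tc was 6.28 in KO replicate 3 against 2.46 to 3.52 in the others. In WT, mt-Atp8 was 2.15 in replicate 3 (others 0.73 to 0.88), mt-Ta was 2.09 in replicate 2 (others 0.81 to 0.86), and in replicate 1 mt-Tw was 0.81 (others 0.52 to 0.55) and mt-Co3 was 3.92, below the others at 5.27 to 5.37. The share of mitochondrial reads was 2.565% in WT replicate 3 at E14, below the others at 2.73 to 2.76%.

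At P30, WT amygdala replicate 3 had the highest mt-Co1 (22683, others 16489 to 17535) and the highest mt-Tp (66.6, others 34.9 to 38.5). mt-Te was 14.4 in KO frontal cortex replicate 2 (others 10.5 to 10.8), and mt-Rnr1 was 2663 in WT frontal cortex replicate 1 (others 2385 to 2415). In the hippocampus mt-Tq was 6.51 in KO replicate 3 (others 3.05 to 3.58) and 4.82 in WT replicate 1 (others 2.37 to 2.78). At P60, mt-Rnr1 was 2356 in KO amygdala replicate 3 (others 2036 to 2083).

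mt-Rnr1 was higher in every KO than in every WT library at E14 (0.37 on the log2 scale) and lower in every KO than in every WT library in the P30 amygdala (-0.50) and the P30 frontal cortex (-0.16). The difference between the ages was not tested, because the ages stand in separate tables.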

How the results depend on the processing

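No protein-coding or rRNA gene was called between KO and WT in any of the 13 contrasts of genotype under any alternative run, the replicate block included. In the region contrasts the count of called protein-coding and rRNA genes for the hippocampus against the frontal cortex at P30 was 8, and 6 to 9 with 1 library left out, but 5 without the WT replicate 3 libraries of all 3 regions. For the amygdala against the frontal cortex at P30 the count of 1 became 0 without a filter, 0 with scaling without mitochondrial genes, 0 with voom, 0 without those WT replicate 3 libraries, 3 in a fit of the compared groups alone, 2 with the replicate block and 0 to 2 with 1 library left out. For the amygdala against the hippocampus at P30 the count of 0 became 4 with that scaling, 3 with voom, 1 without those WT replicate 3 libraries and 0 to 2 with 1 library left out (2 without WT hippocampus replicate 3 and 1 without replicate 4). For the hippocampus against the frontal cortex at P60 the count of 0 became 1 without KO frontal cortex replicate 1 or WT hippocampus replicate 1 and stayed at 0 without any other (0 to 1).

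Among tRNA genes, the call between amygdala and hippocampus at P30 (1) went to 0 without a filter, with that scaling and in WT alone, to 2 without those WT replicate 3 libraries, and to 0 to 1 with 1 library left out. At P60, amygdala against frontal cortex fell from 3 to 1 in WT alone, and amygdala against hippocampus rose from 0 to 1 with that scaling, with voom, in WT alone and with the replicate block, and was 0 to 1 with 1 library left out. The tRNA counts of the other region contrasts kept within 1.5 times their value. No called gene reversed its direction, and the block changed no other count of called genes. Differences between KO and WT that were not called did change sign. In the P60 frontal cortex 6 protein genes were above 0, against 0 with the replicate block and 13 without KO replicate 1. In the P60 hippocampus the protein median went from -0.085 to 0.034 with the block. The cause of these changes was not tested. The planned edgeR and DESeq2 fits were not run, because the deposited values are not counts; voom took their place. Depth limits the tRNA genes most, at 0 to 387 reads per library.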
